A study of Homo sapiens with 40 samples.

Results

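The basal and stress keratins examined here are 8 genes, KRT5, KRT14, KRT15, KRT6A, KRT6B, KRT6C, KRT16 and KRT17, out of the 60708 genes in the count tables. They were taken as a list of symbols, and the list was chosen by their measured levels and differences in these same 24 libraries, so the values that follow describe the genes and are no independent evidence about the family. RNA was sequenced from 8 groups of 3 libraries. MI-spheres were grown from MCF-10A, a normal-like human breast epithelial line, and MII-spheres from its HRAS-transformed derivative MCF-10AneoT, both in 3D on ultra-low attachment plates, untreated (Ctrl) or given TGFβ1 at 2.5 ng/ml for 16 h (TGFβ). MDA-MB-231, a triple-negative breast carcinoma line, was grown as a monolayer in DMEM with 10% FBS, without added TGFβ, as WT cells, as cells with Cas9-edited SNAI2 expanded from single-cell clones (SLUG KO), or transfected with control siRNA (Csi) or with siRNA against SMAD2, SMAD3 and SMAD4 together (siSMAD2/3/4).

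Keratins are the intermediate filament proteins of epithelia and assemble only as pairs of a type I with a type II chain. KRT5 (type II) pairs with KRT14 (type I) in basal cells of stratified and glandular epithelia, where KRT15 is another basal type I chain. KRT6A, KRT6B and KRT6C (type II) with KRT16 and KRT17 (type I) are the stress keratins, known for their induction in wounded or activated epidermis and in hyperproliferation. In the breast, KRT5, KRT14 and KRT17 mark the basal and myoepithelial layer and basal-like carcinoma.

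The 3 KRT6 genes lie side by side with KRT5 on chromosome 12, and the type I members lie together on chromosome 17. The coding sequence of KRT6A was 97.5% identical to that of KRT6B and 97.9% identical to that of KRT6C, and KRT6B and KRT6C were 98.5% identical. The following 90-base coding stretch lies within a single exon and holds the most differences between KRT6A and KRT6B of any such stretch. It is shown because the counts of these genes rest on reads that cover such positions. Sequences are GENCODE transcripts on GRCh38, from the minus strand, and capitals mark the 10 positions at which the 3 genes are not all alike.
KRT6A, chr12:52491532-52491621: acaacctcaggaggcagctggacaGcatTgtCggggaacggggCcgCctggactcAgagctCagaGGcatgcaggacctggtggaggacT
KRT6B, chr12:52450416-52450505: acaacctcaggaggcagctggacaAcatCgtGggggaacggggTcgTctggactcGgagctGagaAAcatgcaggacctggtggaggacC
KRT6C, chr12:52472076-52472165: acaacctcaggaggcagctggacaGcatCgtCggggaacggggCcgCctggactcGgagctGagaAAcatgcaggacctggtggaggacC
In this stretch KRT6B differed from KRT6A at 10 positions and KRT6C differed from KRT6A at 6. Elsewhere the paralogs were harder to tell apart. Of all 50-base windows of the canonical transcript, 39.2% in KRT6A, 46.7% in KRT6B and 53.1% in KRT6C occurred identically in a transcript of another gene, and with 150-base windows these shares were 9.26%, 12.7% and 16.3%. KRT14 shared 24.2% of its 50-base windows, KRT16 shared 21.8% and KRT17 shared 17.4%, with one another, with KRT16 and KRT17 pseudogenes or with genes that have no symbol, whereas KRT5 shared 4.52% and KRT15 shared 1.02%. The authors' counting left out fragments that mapped to several places, so counts of KRT6A, KRT6B, KRT6C, KRT14, KRT16 and KRT17 omit part of their message and the split within each set is uncertain to that degree.

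Of the members, KRT5 was matched in the RefSeq promoter table, and its promoter is shown because KRT5 had among the largest responses to TGFβ in both lines. The 250 bases before the RefSeq start of KRT5 are given on GRCh38.p14, minus strand, with capitals at each match to 1 of 3 motifs searched on both strands. The SMAD half-site was read as CAGA, and the TATA-type box as ATAAAA. The AP-1 site was read as TGANTCA.
KRT5 promoter, chr12:52520395-52520644: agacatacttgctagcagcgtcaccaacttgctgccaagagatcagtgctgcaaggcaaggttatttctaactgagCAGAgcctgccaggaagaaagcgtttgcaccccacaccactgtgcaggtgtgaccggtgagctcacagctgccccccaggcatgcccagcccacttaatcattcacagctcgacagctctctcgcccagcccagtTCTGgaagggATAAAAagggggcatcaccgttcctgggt
The SMAD half-site matched 1 time on each strand, and 89.2% of 35116 promoters of this length held it. The TATA-type box matched 1 time on the forward strand and was held by 14.8% of promoters. The AP-1 site, held by 6.57% of promoters, did not match in this window. These are matches of letters only.

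Total counts per library ranged from 14124688 to 38406952, and 3 counts, used as the detection floor, corresponded to between 0.0790 and 0.204 CPM (read counts scaled to library size with TMM factors over the 24 libraries). Replicates of 7 groups reached r of at least 0.984 (log2 CPM, across genes), and in WT, where replicate 2 stood apart, the lowest r was 0.952. HRAS stood at 40.7 and 60.7 CPM in MI Ctrl and MI TGFβ and at 220.1 and 195 CPM in MII Ctrl and MII TGFβ (group means). VIM, the mesenchymal filament protein, stood at 732 to 1007 CPM in the MDA-MB-231 groups and 1.71 to 8.03 CPM in the sphere groups. Of 14 basal markers other than keratins, 12 to 14 were above 3 counts in each sphere group, and 12 or 13 in each MDA-MB-231 group, where their sum was higher (2440 to 3664 CPM per library, against 1141 to 1934 CPM), so this list did not set the spheres apart. The basal factor TP63 stood at 0.620 ± 0.136 CPM in MII Ctrl against 51.2 ± 2.28 CPM in MI Ctrl (SD, n = 3). The basal list as a whole did not move that way. Of its 11 genes tested in MII Ctrl against MI Ctrl, 3 were higher, 3 lower and 5 not called, with a median log2 fold-change of 0.01. Of all genes tested there, 31.7% were higher and 32.5% lower, so these counts are near the shares of all genes. CNN1, a smooth muscle marker of myoepithelium, was at or under 3 counts in every library of MI Ctrl, MII Ctrl and MII TGFβ. In bulk RNA, fewer cells that express a keratin and less message in each cell cannot be told apart.

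In spheres, KRT15 and KRT17 were the abundant members, and KRT14 and KRT6C the scarce ones. KRT15 lay between 4223 and 4424 CPM in MI Ctrl, between 5134 and 5535 in MI TGFβ, between 3543 and 3688 in MII Ctrl and between 3915 and 4106 in MII TGFβ. In TPM-like units (counts per kb of summed exon length, scaled to a fixed sum per library) it ranked between 33 and 38 among all genes of each sphere library. KRT17 lay between 1242 and 1303 CPM in MI Ctrl and between 2361 and 2581 in MI TGFβ, against 328 to 331 in MII Ctrl and 1169 to 1281 in MII TGFβ. The groups of KRT17 overlapped only between MI Ctrl and MII TGFβ.

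KRT5, the basal type II chain, gave 104.7, 109.3 and 105.6 CPM in the 3 MI Ctrl libraries and 598, 567 and 606 in MI TGFβ. It gave 18.3, 18.2 and 20.1 CPM in MII Ctrl and 205, 194 and 204 in MII TGFβ. The 4 sphere groups of KRT5 did not overlap, and their order was MI TGFβ, MII TGFβ, MI Ctrl and MII Ctrl. KRT14, its usual type I partner, was far lower, at 1.58, 1.59 and 1.51 CPM in MI Ctrl and 4.99, 4.03 and 4.30 in MI TGFβ. In MII-spheres KRT14 gave 9.13, 7.56 and 8.54 CPM in Ctrl and 19.7, 26.1 and 27.2 with TGFβ. The 4 sphere groups of KRT14 stood apart, with every MII library above every MI library, which is another order than that of KRT5.

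KRT6A gave 54.2, 53.2 and 49.4 CPM in MI Ctrl, 352, 317 and 349 in MI TGFβ, 1.79, 1.91 and 1.55 in MII Ctrl and 35.5, 32.3 and 31.2 in MII TGFβ. KRT6B had the opposite order of lines, with 8.56, 8.86 and 6.85 CPM in MI Ctrl, 35.8, 31.6 and 34.5 in MI TGFβ, 138, 150.0 and 126 in MII Ctrl and 686, 669 and 730.0 in MII TGFβ. None of these 4 groups overlapped for either gene. KRT6C was low, and under the floor in MI Ctrl, with 2 counts in each library. It gave 21, 10 and 22 counts in MI TGFβ, 5, 18 and 6 in MII Ctrl and 19, 23 and 18 in MII TGFβ. KRT16, the type I chain that pairs with KRT6, gave 75.2, 75.3 and 79.6 CPM in MI Ctrl and 170, 152 and 167 in MI TGFβ. In MII-spheres KRT16 gave 143, 155 and 144 CPM in Ctrl and 389.7, 342 and 385 with TGFβ, so that MI TGFβ and MII Ctrl overlapped and the other sphere groups did not.

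The first comparison asked how the normal-like spheres responded to TGFβ. All 7 members that passed the low-count filter were higher in MI TGFβ than in MI Ctrl by the quasi-likelihood test of edgeR at an adjusted p under 0.05, where 28.7% of all tested genes were higher and 27.4% lower. KRT6A was 6.12-fold higher (95% interval 5.66 to 6.62), KRT5 5.24-fold (4.88 to 5.62) and KRT6B 3.94-fold (3.46 to 4.48). The type I chains moved less. KRT14 was 2.67-fold higher (2.05 to 3.47), KRT16 2.01-fold (1.86 to 2.16) and KRT17 1.83-fold (1.71 to 1.96). KRT15 was 1.16-fold higher (1.08 to 1.24). The median log2 fold-change of the tested members was 1.42, beside -0.02 over all 16863 genes tested. KRT6C did not pass the filter in this comparison, and DESeq2, which filters otherwise, called 8 members higher, KRT6C included. The mesenchymal marker list moved alongside, from a summed 74.4 to 81.3 CPM in MI Ctrl to 302 to 335 CPM in MI TGFβ, and the basal list from 1201 to 1228 CPM to between 1876 and 1934 CPM, with 7 of 11 tested genes higher and 1 lower. The luminal list summed to 2681 to 2747 CPM in MI Ctrl and to between 3214 and 3575 CPM in MI TGFβ. Of its 10 tested genes 5 were higher and 3 lower. The part of these lists in the keratin values was not tested.

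In MII-spheres all 8 members were higher with TGFβ by the same test, where 29.9% of all tested genes were higher and 27.6% lower. KRT6A was 18.1-fold higher (15.4 to 21.3), from its low Ctrl level, and KRT5 was 10.4-fold higher (9.69 to 11.2). KRT6B was 4.90-fold higher (4.62 to 5.19), KRT17 3.67-fold (3.50 to 3.85), KRT6C 2.88-fold (1.72 to 4.84), KRT14 2.86-fold (2.48 to 3.31) and KRT16 2.46-fold (2.32 to 2.60). KRT15 was 1.09-fold higher (1.04 to 1.13). The median log2 fold-change was 1.70 over the members and -0.02 over all 16396 genes tested. The mesenchymal list went from 156 to 162 CPM in MII Ctrl to between 179 and 190 CPM in MII TGFβ. Of its 7 tested genes 2 were higher and 1 lower, and FN1, at 134 and 146 CPM (group means), was not called. The basal list went from 1141 to 1172 CPM to between 1480 and 1506 CPM, with 5 of 10 tested genes higher and 0 lower. The luminal list went from 3506 to 3517 CPM to between 4817 and 4963 CPM, with 6 of 13 higher and 1 lower. The part of these lists in the keratin values was not tested.

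The small differences of KRT15 depended on the scaling. Without TMM factors, on library totals alone, the median of all genes moved by -0.14 (log2) in the MI comparison and by -0.13 in the MII comparison. On that scale KRT15 went from 4345 to 4577 CPM in MI-spheres and from 3874 to 3848 CPM in MII-spheres, so that its direction in MII-spheres turned. In TPM-like units KRT15 went from 1306 to 1376 in MI-spheres and from 1732 to 1394 in MII-spheres. The other members that were called differed by far more than the shift of the medians.

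**Figure D1:**
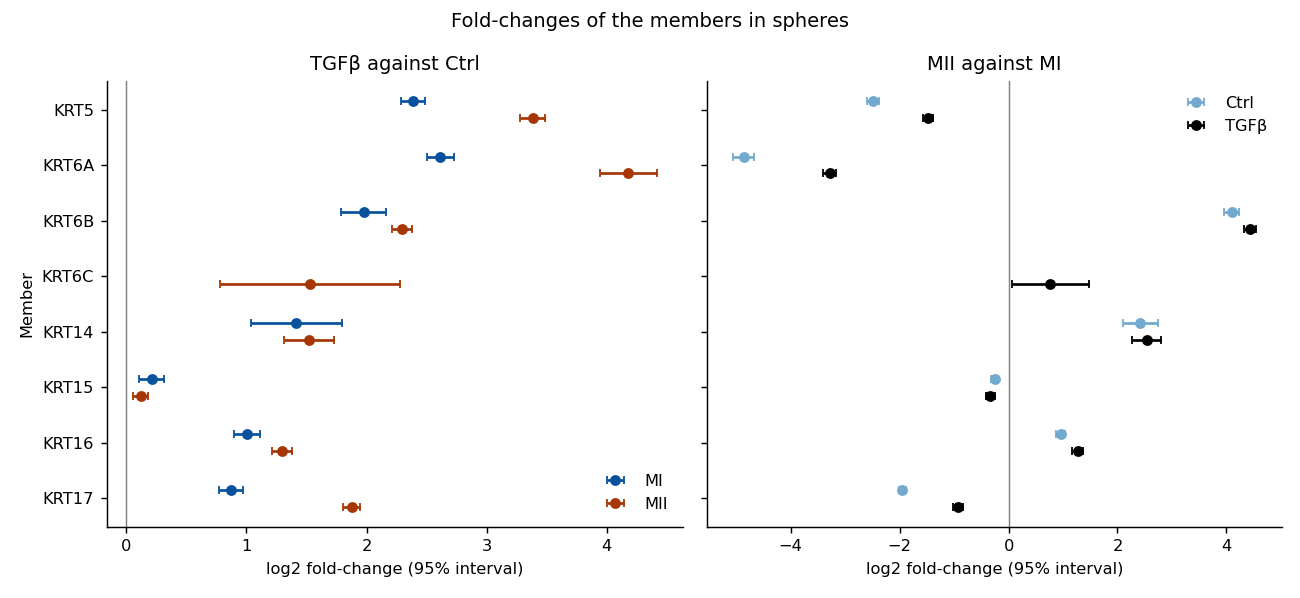
Log2 fold-change of each member with its 95% interval. The left panel gives TGFβ against Ctrl in MI (blue) and MII (orange) spheres and the right panel MII against MI, in Ctrl (light blue) and TGFβ (black) spheres. On the left all plotted points are above 0, up to 4.18 for KRT6A in MII, and on the right KRT5, KRT6A, KRT15 and KRT17 lie below 0 and KRT6B, KRT6C, KRT14 and KRT16 above.

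Whether the response differed between the lines was tested with the interaction of line and TGFβ in 1 fit of the 12 sphere libraries. The response was larger in MII for 5 of 8 members and smaller for 0, where 12.6% of all tested genes had a higher and 9.75% a lower response. The response of KRT6A in MII was 2.98 times that in MI (2.48 to 3.58), that of KRT17 2.02 times (1.86 to 2.20), that of KRT5 2.00 times (1.82 to 2.21), that of KRT6B 1.26 times (1.09 to 1.45) and that of KRT16 1.24 times (1.12 to 1.37). With the 3 KRT6 genes taken as 1 feature the interaction was -0.19 (log2, adjusted p = 0.0733, edgeR), so the larger responses of KRT6A and KRT6B in MII did not hold for their sum. The KRT6B difference lost the call in 6 of 12 fits that left out 1 library. For KRT14 the ratio of responses was 1.08 (0.787 to 1.48), for KRT15 0.945 (0.873 to 1.02) and for KRT6C 0.360 (0.132 to 0.983), with adjusted p of 0.801, 0.355 and 0.161 in edgeR's quasi-likelihood test, so that these intervals, and not an equal response, are what the data give.

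Between the lines the members split. In Ctrl spheres 3 of 7 tested members were higher in MII than in MI and 4 lower, where 31.7% of all tested genes were higher and 32.5% lower. KRT6B was 17.1-fold higher in MII (15.5 to 18.8), KRT14 5.36-fold (4.27 to 6.72) and KRT16 1.94-fold (1.83 to 2.06). KRT6A stood at 0.0343 of its MI level (0.0299 to 0.0393), KRT5 at 0.178 (0.165 to 0.192), KRT17 at 0.259 (0.247 to 0.272) and KRT15 at 0.837 (0.800 to 0.876). The direction of KRT15 depended on the scale. In TPM-like units its group mean was 1306 in MI Ctrl and 1732 in MII Ctrl, so it turned. Basal and stress members were thus on both sides, as were type I and type II chains.

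With TGFβ the same 3 members were higher in MII and the same 4 lower, among 8 tested, where 31.1% of all tested genes were higher and 31.6% lower. KRT6B was 21.6-fold higher (19.9 to 23.4), KRT14 5.80-fold (4.84 to 6.96) and KRT16 2.41-fold (2.23 to 2.59). KRT6A stood at 0.103 of its MI level (0.0945 to 0.111), KRT5 at 0.358 (0.336 to 0.382), KRT17 at 0.527 (0.494 to 0.562) and KRT15 at 0.794 (0.747 to 0.844). In TPM-like units KRT15 was not lower in MII, at 1376 ± 50.9 in MI TGFβ and 1394 ± 21.6 in MII TGFβ (SD, n = 3). KRT6C was 1.70-fold higher (1.04 to 2.79) and did not pass (adjusted p = 0.0713, edgeR). These comparisons share libraries with those of TGFβ against Ctrl. With 1 line of each kind, HRAS and any other difference between the lines cannot be told apart.

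The KRT6 genes showed the split most plainly. KRT6B took 13.3% ± 1.07 of the summed KRT6A, KRT6B and KRT6C counts in MI Ctrl and 9.08% ± 0.107 in MI TGFβ, against 98.5% ± 0.0871 in MII Ctrl and 95.3% ± 0.422 in MII TGFβ (SD, n = 3). KRT6C took at most 0.395% in any sphere library. The summed KRT6 level was 60.5 ± 3.55 CPM in MI Ctrl, 374 ± 22.2 in MI TGFβ, 140.0 ± 12.6 in MII Ctrl and 729 ± 30.6 in MII TGFβ. With the KRT6 genes taken as 1 feature, MII Ctrl was therefore above MI Ctrl, by 1.23 on the log2 scale, although KRT6A alone was lower.

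Across the 12 sphere libraries log2 CPM of KRT5, KRT6A, KRT15 and KRT17 varied together, with Pearson's r between 0.882 and 0.991 for the pairs, and KRT14, KRT6B, KRT6C and KRT16 formed another set, with r between 0.800 and 0.993. KRT5 with KRT14, the textbook pair, gave r = -0.06, and KRT6A with KRT16 gave -0.04. These values describe 4 clusters of 3 replicates, which share line and treatment, and are not tests. By the same measure over 13541 protein-coding genes, the patterns most like each member were those of PDIA4, MTCH2 and KPNA2 for KRT5, of SHMT1, PSIP1 and ADGRL2 for KRT14, of AKR7A2, ATP5MJ and IRF2BPL for KRT15 and of GJB2, HDLBP and S100A2 for KRT6A. For KRT6B they were TTC39C, CD59 and SHMT1, for KRT6C SRP14, PMPCA and MRPL49, for KRT16 SLC3A2, PIK3R3 and CTNNB1 and for KRT17 RNF145, BIRC5 and USP5. Their r lay between 0.973 and 0.998, and for KRT15 20 genes exceeded 0.99. The likeness did not hold for all pairs beyond the spheres, since over all 24 libraries r of the same pairs ranged from -0.86 (BIRC5 with KRT17) to 0.97 (PIK3R3 with KRT16), with -0.71 for PDIA4, -0.04 for MTCH2 and -0.79 for KPNA2 with KRT5.

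Because type I and type II chains assemble as partners, their messages were compared per length. Per kb of summed exon length, the type I members exceeded the type II members 25.2 ± 1.37 times in MI Ctrl, 6.53 ± 0.127 times in MI TGFβ, 11.97 ± 0.750 times in MII Ctrl and 3.45 ± 0.0720 times in MII TGFβ (SD, n = 3). The type II members summed to 84.7 ± 8.02 units in MI Ctrl and 422 ± 24.3 in MI TGFβ, and to 187 ± 19.5 in MII Ctrl and 749.5 ± 20.6 in MII TGFβ. The type I members summed to 2129 ± 171, 2755 ± 117, 2228 ± 98.5 and 2583 ± 21.5 units in the same order. With the 29 other keratins of a fixed list added, the ratio of type I to type II was 0.891 ± 0.0130 in MI Ctrl, 1.67 ± 0.0213 in MI TGFβ, 1.01 ± 0.0359 in MII Ctrl and 1.11 ± 0.0140 in MII TGFβ. The members made up 34.2% ± 0.298 and 51.1% ± 0.410 of this keratin message in MI Ctrl and MI TGFβ, and 37.5% ± 0.201 and 52.4% ± 0.150 in MII Ctrl and MII TGFβ.

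These ratios and shares depended on the gene length used, since the summed exon length of KRT15 (5969 bases) is 3.49 times that of its canonical transcript (1712 bases). Per kb of canonical transcript, type I exceeded type II members 46.5 times in MI Ctrl, 11.4 times in MI TGFβ, 35.0 times in MII Ctrl and 8.38 times in MII TGFβ, and KRT15 held between 59.0% and 84.7% of the members' message. The lower ratio within the members with TGFβ in each line held on both lengths. With the other keratins added, type I to type II became 1.45 in MI Ctrl, 2.35 in MI TGFβ, 1.33 in MII Ctrl and 1.42 in MII TGFβ, so that the type II excess in MI Ctrl turned to a type I excess. The members' share became 47.3% and 59.9% in MI Ctrl and MI TGFβ and 45.5% and 53.8% in MII Ctrl and MII TGFβ, so the order of the lines turned, whereas the share was higher with TGFβ in each line on both lengths.

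Genes that work with these keratins were taken from fixed lists. Among 21 genes that anchor keratin filaments at desmosomes and hemidesmosomes, 15 of 20 tested were higher with TGFβ in MI-spheres and 3 lower, and 14 of 20 were higher and 2 lower in MII-spheres. Of all tested genes, 28.7% were higher and 27.4% lower in MI-spheres, and 29.9% higher and 27.6% lower in MII-spheres. ITGA6, an integrin chain of hemidesmosomes, was higher by 0.74 and 0.49 (log2) in MI and MII, LAMB3, a laminin-332 chain, by 0.28 and 0.50, and CD151, a tetraspanin bound to that integrin, by 0.22 and 0.28. ITGB4, the partner of ITGA6, gave 0.13 and -0.07 and passed in neither line (adjusted p = 0.115 in each, edgeR). Of the other keratins, 3 of 15 tested were higher and 9 lower in MI-spheres, and 4 of 12 higher and 3 lower in MII-spheres. KRT81, a hair keratin, fell by 0.85 in MI and by 0.19 in MII, and KRT7, a simple-epithelial type II chain, fell by 0.51 in MI and gave -0.01 in MII, where it did not pass (adjusted p = 0.892, edgeR). KRT8, the simple-epithelial type II chain, was higher by 0.33 and 0.39, and its partner KRT18 gave 0.03 and 0.07 and passed in neither line. In TPM-like units CD151 went from 271 to 243 and KRT8 from 568 to 551 in MII-spheres (group means). The direction of CD151 and KRT8 in MII-spheres thus depended on the scale.

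Of 28 tested transcription factors linked to keratinocyte or mammary identity, 6 were higher and 16 lower in MI TGFβ, and 4 higher and 13 lower in MII TGFβ. By DESeq2 7 were higher and 12 lower in MI TGFβ, and 4 higher and 13 lower in MII TGFβ. The shares of all tested genes given above apply here as well. KLF5, a factor of proliferating epithelia, fell by 0.54 in MI and by 0.15 in MII, ELF3 fell by 1.05 and by 0.43, and JUNB, an AP-1 subunit, fell by 0.30 and by 0.70. EHF fell by 0.13 in MI and was higher by 0.21 in MII. In TPM-like units EHF went from 332 to 284 in MII-spheres (group means), so its direction there turned. Genes of activated and cornifying keratinocytes differed between the lines in their response. In MI-spheres 6 of 27 were higher and 14 lower, and in MII-spheres 12 of 22 were higher and 2 lower. The genes that passed the filter were not all the same in both lines. The interaction was higher in MII for 15 of 27 and lower for 2. Of all tested genes, 12.6% had a higher and 9.75% a lower response in MII. The secreted alarmins S100A8 and S100A9 fell by 0.68 and by 0.62 in MI and were higher by 1.33 and 0.35 in MII. S100A8 went from 1441 to 951 CPM in MI-spheres and, at a low level, from 1.52 to 3.84 CPM in MII-spheres. In TPM-like units S100A9 went from 434 to 409 in MII-spheres, so its direction there turned. S100P fell by 1.06 in MI. In MII it gave -0.09, a size below the scaling shift given above, and DESeq2 called none of the genes of this list lower there (0, against 2 by edgeR). SLPI, a secreted protease inhibitor, gave -0.06 in MI (not called) and 0.14 in MII. In TPM-like units SLPI went from 6599 to 5374 in MII-spheres, so its direction there turned as well.

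In MDA-MB-231 the type II members were at or near the floor, with at most 8 counts of KRT5 and 3 of KRT6A in any library, and the type I members were low. KRT15 lay between 4.51 and 8.78 CPM in the 12 libraries and KRT17 between 0.0397 and 2.04 CPM, with up to 74 counts. KRT14 reached 30 counts and KRT16 reached 25, each in siSMAD2/3/4, and both were lower in WT and in the libraries labelled SLUG KO, with at most 5 counts. KRT6B and KRT6C had 0 counts in all 12 libraries, and KRT5 had 0 in the 6 WT and SLUG KO libraries. Against a floor of 3 counts per library, KRT5 in MI Ctrl was at least 858-fold higher than in WT and KRT6B in MII Ctrl at least 1110-fold higher. KRT15 in MI Ctrl was 785-fold above WT. Line, medium and culture format change together between spheres and monolayers, so these levels were not tested. In Csi KRT5 gave 7, 5 and 8 counts, and WT and Csi differ in transfection and in sequencing batch, which cannot be told apart.

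SNAI2, the gene targeted in SLUG KO, gave 30.2, 20.9 and 33.7 CPM in WT and 63.5, 57.7 and 64.3 in the libraries labelled SLUG KO, so its message was higher there (1.11 on the log2 scale, adjusted p = 0.0399, edgeR). A Cas9 edit need not lower the message, and gene counts do not check it. The paper states that its knockout clones were checked by ddPCR and immunoblotting. Of 2 members tested 0 were called, where 1.45% of all tested genes were higher and 1.89% lower by edgeR's quasi-likelihood test, with 1 member at an unadjusted p under 0.05 and 0 called by DESeq2. KRT15 gave 5.37, 6.75 and 4.51 CPM in WT and 8.78, 7.53 and 8.78 in the libraries labelled SLUG KO, groups that did not overlap, and was 1.48-fold higher (1.09 to 2.01, adjusted p = 0.237). Without WT replicate 2, the library that stood apart, it was higher by 0.75 (log2) with an adjusted p of 0.00215. KRT17 gave 11, 23 and 15 counts in WT and 1, 7 and 9 in those labelled SLUG KO (adjusted p = 0.315), and KRT14 gave 1, 5 and 4 counts against 0 in each.

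The siRNA lowered its targets, with SMAD2 at 23.95 ± 0.367 CPM in siSMAD2/3/4 against 90.5 ± 1.67 in Csi, SMAD4 at 16.8 ± 1.11 against 55.4 ± 1.21 and SMAD3 at 166 ± 6.82 against 266 ± 6.00 (SD, n = 3). Of 4 members tested 1 was called, where 16.3% of all tested genes were higher and 19.7% lower. That was KRT14, with 9, 13 and 10 counts in Csi and 17, 30 and 30 in siSMAD2/3/4, 2.44-fold higher (1.41 to 4.23, adjusted p = 0.0121, edgeR). The call rested on few counts and was lost without Csi replicate 3 (1.21 on the log2 scale), siSMAD2/3/4 replicate 2 (1.18) or siSMAD2/3/4 replicate 3 (1.12), and KRT16 pseudogenes that share sequence with KRT14 were counted in these libraries, KRT16P6 for example with 60 counts over Csi and 88 over siSMAD2/3/4. KRT15 was at 0.818 of its Csi level (0.691 to 0.968, adjusted p = 0.0689), KRT16 at 1.27 (0.739 to 2.17) and KRT17 at 1.18 (0.847 to 1.64), and none of these passed. KRT15 passed without siSMAD2/3/4 replicate 2, at -0.44 on the log2 scale (adjusted p = 0.0121, edgeR). The labels give 1 batch for all 6 of these libraries, but the names of the deposited tables carry another flow cell for siSMAD2/3/4 replicates 1 and 2 than for siSMAD2/3/4 replicate 3 and the 3 Csi libraries. With that flow cell as a term the contrast rests on 1 siSMAD2/3/4 library against 3 Csi libraries, and it gave 1.60 for KRT14 on the log2 scale (adjusted p = 0.0253, edgeR), so flow cell and treatment are told apart by that library alone.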

How the data were processed

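RNA-seq of 24 libraries (3 in each of 8 groups, labelled biological replicates) was used. Another 16 samples, of ATAC-seq, were not used. After Trimmomatic and STAR (GRCh38), the authors deposited raw counts of fragments per gene from featureCounts 2.0.0 on GENCODE 38 exons, paired, both ends mapped, mapping quality of at least 30, without strand, and without multi-mapping or multi-overlap fragments. This leaves out reads shared by paralogs. Symbols came from GENCODE 44 and matched 60463 of 60708 genes (99.6%). Genes passing filterByExpr were tested with edgeR 4.0.16 (TMM, glmQLFit, glmQLFTest, Benjamini-Hochberg over all tested genes, threshold 0.05), with factors set within each comparison, whereas CPM used factors over all 24 libraries. Fold-changes are the model's and intervals are 1.96 SE. DESeq2 1.42.0 and other settings were alternatives. On simulated counts with 200 genes changed by 2 on the log2 scale, the SLUG KO comparison recovered 134, the interaction 161 and the MII TGFβ comparison 198. Smaller changes were not simulated. Same-numbered libraries did not deviate together, so they were not paired. The members, gene lists and tests were chosen with earlier results of these data known. All 8 members were named in every comparison, of each gene list the 4 genes with the highest mean level per length in spheres, the targeted genes, and 3 genes most correlated with each member. Depth ranged from 14124688 to 38406952 counts per library, which sets the floor of 3 counts, for counting error only.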

Additional observations from a re-analysis of the deposited data

Results flagged for a closer look

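The response to TGFβ differed between MII- and MI-spheres for 5 members, by the interaction term of edgeR's quasi-likelihood test. The difference (MII minus MI, log2) was 1.57 for KRT6A, 1.02 for KRT17, 1.00 for KRT5, 0.33 for KRT6B and 0.30 for KRT16, with adjusted p-values of 6.50e-12, 3.44e-16, 5.82e-14, 0.0204 and 0.00190. All 3 MII TGFβ libraries of each of these genes lay above all 3 MII Ctrl libraries, and likewise in MI. How many of all genes separated in this way was not counted. Of all tested genes, 29.9% were called higher with TGFβ in MII-spheres and 28.7% in MI-spheres. KRT5, KRT6A and KRT17 started from lower Ctrl levels in MII than in MI, and KRT6B and KRT16 from higher ones. The part of the starting level was not tested. With the 3 KRT6 genes taken as 1 feature the difference turned to -0.19 (adjusted p = 0.0733, edgeR).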

How the results depend on the processing

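Of 606 repeats of single members' fold-changes under other settings, 581 were counted as unchanged, 9 lost the call, 8 gained it and 8 reversed. A reversal was counted only where at least 1 of the 2 fits was called. Changes of sign without a call stand among the 581. Examples are KRT14 in the interaction (0.11, down to -0.02) and KRT17 in siSMAD2/3/4 against Csi (0.24, down to -0.18, log2). The 8 counted reversals all came from counting paralogs as 1 feature, by construction. KRT6A in MII against MI then took the summed KRT6 value, 1.23 in Ctrl and 1.04 with TGFβ, and KRT14 and KRT16 took the value of their sum with KRT17, -1.48 in Ctrl and -0.62 with TGFβ. The interaction of KRT6A and KRT6B became -0.19. In the siSMAD2/3/4 comparison the members called were 0 with at least 10 counts in every library, where KRT14 was no longer tested, and 3 with paralogs as 1 feature. Those 3 were KRT14, KRT16 and KRT17, which shared 1 summed value there, so this is 1 call (0.47 on the log2 scale, adjusted p = 0.0424, edgeR). Leaving out each library in turn gave between 0 and 1 called in that comparison and between 0 and 1 in SLUG KO against WT. With the replicate block, as a paired analysis, the 5 members called in the interaction stayed at 5, and no count of members called moved in any comparison. Same-numbered libraries correlated in their deviations by between -0.12 and 0.03. After seeing the data, the canonical transcript length was added for the ratio of type I to type II members, which gave 46.5, 11.4, 35.0 and 8.38 in MI Ctrl, MI TGFβ, MII Ctrl and MII TGFβ. Group mean CPM moved by over 1 SD in 4 of 64 cases with DESeq2 size factors and in 13 of 64 on library totals. KRT6C and the MDA-MB-231 members are limited by depth.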

Other observations

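TP63 encodes the master factor of basal epithelial identity and is known to drive KRT5 and KRT14. It was chosen for mention after its values were seen. It gave 51.4, 53.3 and 48.8 CPM in MI Ctrl and 0.728, 0.468 and 0.666 in MII Ctrl, a log2 fold-change of -6.42 (adjusted p = 4.99e-44, edgeR). In the same libraries KRT5 was lower in MII and KRT14 higher. Of the 11 basal markers tested there, TP63 included, 3 were higher, 3 lower and 5 not called, where 31.7% of all tested genes were higher and 32.5% lower. With TGFβ, TP63 was higher by 0.69 in MI and by 2.11 in MII (log2), and stood at 2.65 ± 0.228 CPM in MII TGFβ (SD, n = 3).

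Among activated and cornifying keratinocyte genes, 22 of 27 tested were lower in MII Ctrl than in MI Ctrl and 5 higher, with a median log2 fold-change of -2.12 beside 0.02 over all 17862 genes tested. Of all those genes, 32.5% were lower and 31.7% higher. S100A8 stood at 1441 ± 62.0 CPM in MI Ctrl and 1.52 ± 0.253 in MII Ctrl, and S100A9 at 3130 ± 164 and 86.9 ± 3.43 (SD, n = 3). SLPI was higher in MII, at 1374 ± 25.3 CPM against 833 ± 54.8.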
